A study of Mus musculus with 44 samples.

Results

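The S100 genes encode small calcium-binding proteins, and 8 of them were followed here through the livers of mice of 3 genotypes on 3 diets: S100a1, S100a4, S100a6, S100a8, S100a9, S100a10, S100a11 and S100a13. They were taken by name from a table of 35249 genes. Of these 8 genes, 7 passed the filter on low counts that left 14862 genes for testing, and S100a4 did not. Liver RNA came from wild-type (WT) mice, from Ripk3-/- mice (Ripk3KO) and from Mlkl-/- mice (MlklKO). RIPK3 is the kinase, and MLKL the membrane-breaking effector, of necroptosis, a lytic form of cell death. From 2 months of age the mice were fed for 6 months on chow (control) or on a choline-deficient diet that was low in fat (CD-LFD) or high in fat (CD-HFD). The control, CD-LFD and CD-HFD groups held 6, 6 and 6 WT libraries, 6, 3 and 4 Ripk3KO libraries, and 6, 4 and 3 MlklKO libraries. The study asked how blocking necroptosis alters liver inflammation and tumour development. The labels used here name no strain and no sex, and they do not say that each library is a separate mouse, so the p-values measure the spread between these libraries.

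S100 proteins are dimers with EF-hand calcium-binding loops, and most of them change shape when calcium rises and then bind a partner protein. S100A8 and S100A9 form calprotectin, an abundant cytosolic complex of neutrophils and monocytes that signals through TLR4 and the receptor RAGE once released. S100A10 has lost calcium binding and forms a stable complex with annexin A2, S100A11 binds annexin A1, S100A6 binds the ubiquitin-ligase adaptor CACYBP, S100A4 binds non-muscle myosin, and S100A13 takes part in the release of FGF1 and IL-1 alpha. Most genes of the family lie in a cluster on mouse chromosome 3.

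Gene neighbourhood and promoter letters are shown first because the 3 pairs of members that correlated most within groups are neighbours. That ranking is among the members only, since genes outside the 8 correlated more with S100a1 (Cox7b, 0.94 beside 0.84 for S100a13). The same held for S100a10 (Krt18, 0.88 beside 0.74 for S100a11) and S100a8 (Lilr4b, 0.74 beside 0.72 for S100a9). The part of neighbourhood in these correlations was not tested. In RefSeq's order on chromosome 3 (assembly GRCm38.p6), S100a1 is next to S100a13, S100a8 is next to S100a9, and S100a11 is next to S100a10. The 250 bases upstream of the start were read for 7 of the 8 genes. They were searched on both strands for TGANTCA (the AP-1 type of site), TTGCNNAA (a C/EBP type of site), GAGGAA (a PU.1 type of site) and TATAAA (the TATA box). Capitals mark the matches, and all windows are from RefSeq, GRCm38.p6, written 5′ to 3′ on the gene's own strand. S100a6 (chr3:90612644-90612893, plus strand) and S100a11 (chr3:93520246-93520495, plus strand) are shown as the genes that rose most with diet among the 7 tested:
S100a6: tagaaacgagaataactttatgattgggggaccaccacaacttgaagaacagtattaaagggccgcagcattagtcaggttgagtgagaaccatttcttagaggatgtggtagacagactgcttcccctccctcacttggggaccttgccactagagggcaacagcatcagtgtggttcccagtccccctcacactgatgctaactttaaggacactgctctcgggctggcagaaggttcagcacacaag
S100a11: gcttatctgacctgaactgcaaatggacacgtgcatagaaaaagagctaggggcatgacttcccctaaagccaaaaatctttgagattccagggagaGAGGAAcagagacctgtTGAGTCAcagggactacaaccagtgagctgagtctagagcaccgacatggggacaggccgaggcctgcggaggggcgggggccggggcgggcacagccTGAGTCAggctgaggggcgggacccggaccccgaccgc
The S100a11 window held TGAGTCA at -136 and at -38, counted from the start, and GAGGAA at -153, while none of the 4 motifs was in the S100a6 window. A match to TGANTCA was present in 6.75% of 32851 windows of the same length, and 0.338% held at least 2.

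S100a8 (chr3:90668821-90669070, plus strand) and S100a9 (chr3:90695722-90695971, minus strand) are shown as the genes of the calprotectin subunits:
S100a8: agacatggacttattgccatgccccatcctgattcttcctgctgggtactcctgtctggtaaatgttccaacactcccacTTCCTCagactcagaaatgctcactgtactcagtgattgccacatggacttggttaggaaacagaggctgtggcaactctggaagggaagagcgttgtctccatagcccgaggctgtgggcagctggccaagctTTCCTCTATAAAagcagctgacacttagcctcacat
S100a9: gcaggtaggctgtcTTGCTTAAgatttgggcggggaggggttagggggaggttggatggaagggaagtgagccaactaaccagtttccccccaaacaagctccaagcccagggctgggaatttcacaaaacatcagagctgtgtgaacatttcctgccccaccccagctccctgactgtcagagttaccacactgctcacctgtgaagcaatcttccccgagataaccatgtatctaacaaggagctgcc
The S100a8 window held TATAAA at -30, and the reverse strand of GAGGAA (printed as TTCCTC) at -170 and at -36, so that the last of these runs directly into the TATA box. The S100a9 window held TTGCTTAA at -236. TATAAA was found in 12.4% of all windows, GAGGAA in 23.3% and TTGCNNAA in 9.56%. The S100a4 window held TATAAA at -31, and those of S100a1 and S100a13 held none of the 4 motifs. The last sequence is the stretch between the divergent starts of S100a1 and S100a13 (chr3:90514331-90514434, plus strand, GRCm38.p6), which is 104 bases long and 58.7% G plus C:
S100a1 to S100a13: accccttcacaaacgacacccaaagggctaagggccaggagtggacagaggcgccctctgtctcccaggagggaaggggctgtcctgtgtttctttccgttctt
These matches describe letters only and no binding was measured.

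WT CD-LFD replicate 3 was far deeper (88204703 counts) than the other 43 libraries, whose totals lay between 2476268 and 12471844. Levels are given as CPM, counts scaled to a common library total, after TMM, a factor that corrects for the make-up of each library. A gene is called where edgeR's quasi-likelihood test gave a Benjamini-Hochberg adjusted p under 0.05 over all genes tested. Ripk3 was measured at 0.439 to 5.94 CPM of the unscaled total in WT libraries and at 0 to 0.263 in 12 of 13 Ripk3KO libraries, and Ripk3KO control replicate 5 stood at 1.01. Mlkl was measured at 17.2 to 22.6 CPM in WT and at 3.55 and 6.02 in 2 MlklKO libraries on CD-HFD, while the library labelled MlklKO CD-HFD replicate 1 stood at 14.4. On control diet Mlkl ranges overlapped, at 2.02 to 5.50 CPM in WT and 1.24 to 2.61 in MlklKO. Gene counts do not show which exons were deleted, so these values check the labels only in part. The calls that end without MlklKO CD-HFD replicate 1, for S100a1 and S100a10, are given with both values, and no call on Ripk3KO against its control diet ended without Ripk3KO control replicate 5. Markers of hepatocytes were high in every library, with a summed level of 58336 CPM or more. On CD-HFD against control in WT, Ripk3KO and MlklKO, 6, 5 and 6 of 7 tested T and NK cell markers rose, 1, 3 and 3 of 4 B cell markers rose, 6, 5 and 1 of 8 endothelial markers fell, and 3, 2 and 1 of 5 erythroid markers fell. Of all genes, 23.5% were called higher and 24.1% lower in WT, and 24.6% and 21.7% in Ripk3KO. In MlklKO 45.2% were called in either direction. The WT count of 1 of 4 B cell markers was thus near the background. The part of these cell types in the diet results was not tested.

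Compared per kilobase of transcript, S100a1 and S100a10, joined by S100a11 on the choline-deficient diets, made up most of the summed level of the 8 genes in WT, and their order changed with diet. In WT on control diet S100a1 led with 158 ± 42.8 CPM per kb (SD, n = 6), followed by S100a10 with 130 ± 50.6, and the libraries of these 2 genes overlapped. S100a13 (30.9 ± 13.5 CPM per kb) and S100a11 (13.3 ± 8.97) came next and also overlapped each other. S100a9, S100a6 and S100a8 stood between 2.49 and 1.55 CPM per kb with overlapping ranges, and S100a4 had no count. On CD-LFD, S100a10 led in WT (297 ± 67.0 CPM per kb) and lay above S100a1 (125 ± 18.5) in every library. On CD-HFD, S100a11 led in WT (172 ± 49.9 CPM per kb), with S100a10 (158 ± 31.9) and S100a1 (125 ± 23.2) overlapping it. S100a11's share of the summed per-kilobase level of the 8 genes was 3.93% on control diet, 16.7% on CD-LFD and 33.2% on CD-HFD in WT. In Ripk3KO that share was 3.68%, 16.8% and 28.9%, and in MlklKO 4.36%, 17.2% and 33.3%.

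**Figure D1:**
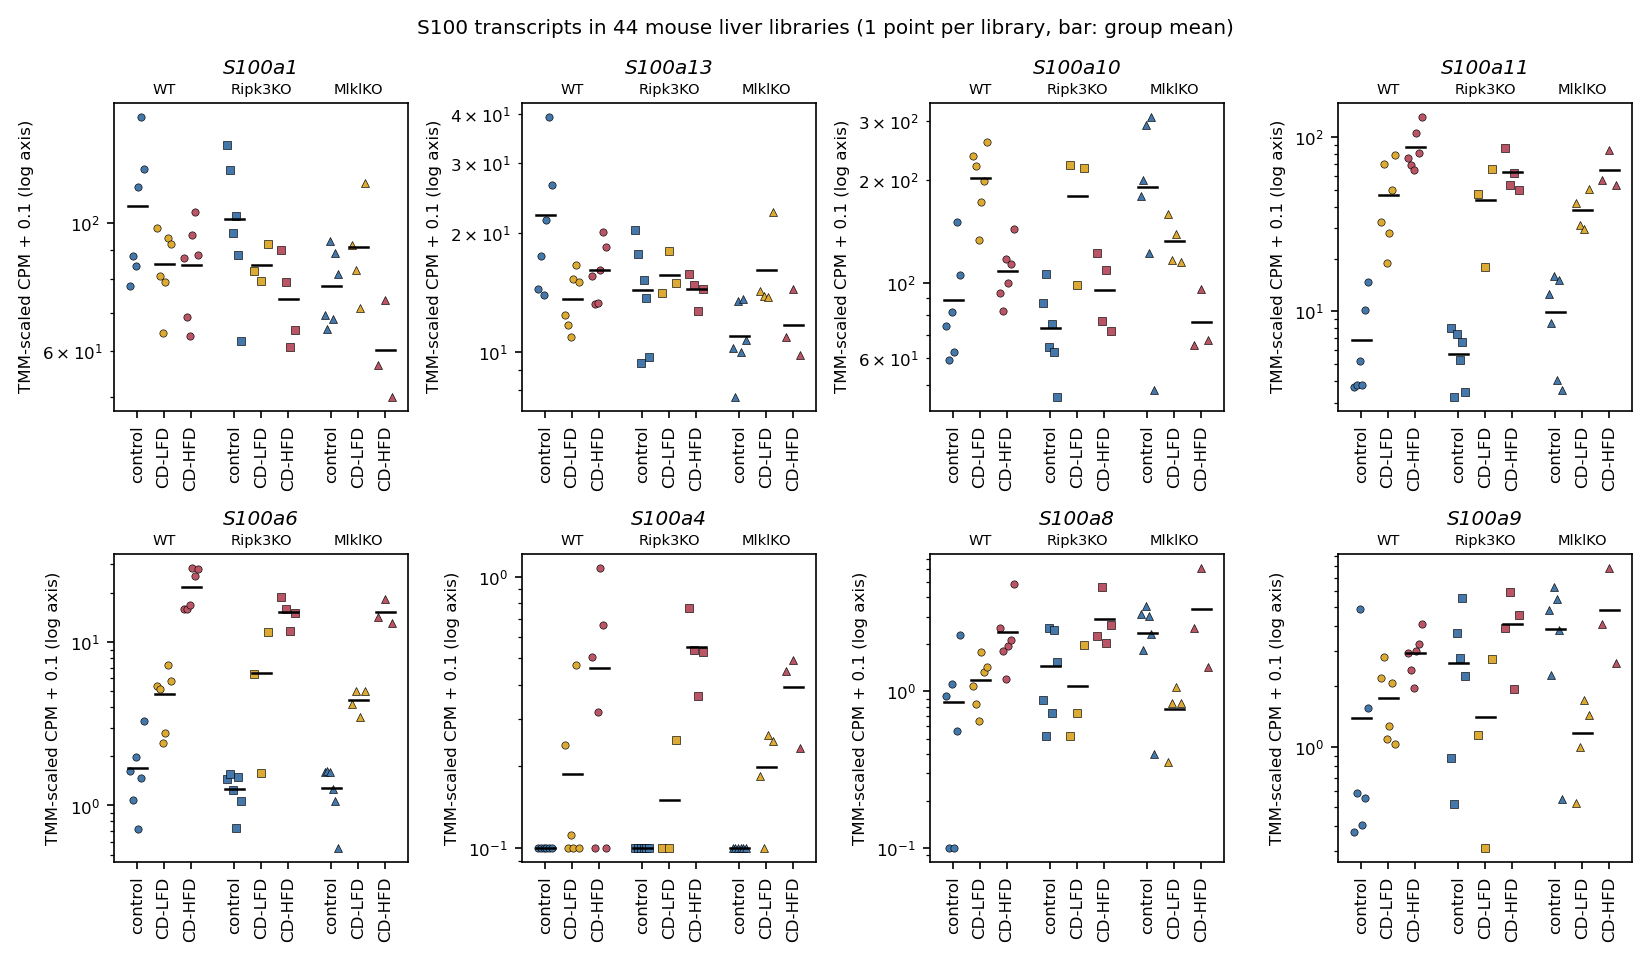
Level of the 8 S100 genes in each library. The y axis is TMM-scaled CPM plus 0.1 on a log scale, the x axis gives the 9 genotype and diet groups, points are libraries and bars are group means. S100a6 and S100a11 climb with diet in all 3 genotypes, S100a10 peaks on CD-LFD in WT and Ripk3KO but on control diet in MlklKO, and S100a4 sits at 0 counts in all control libraries.

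The diet comparisons asked which members differ between the choline-deficient diets and chow within each genotype. Against control, CD-LFD called 4 of 7 tested members in WT, where 27.7% of all genes were called, 3 of 7 in Ripk3KO (24.1% of genes) and 5 of 7 in MlklKO (37.9% of genes). CD-HFD called 3 of 7 in WT (47.7% of genes), 3 of 7 in Ripk3KO (46.3%) and 3 of 7 in MlklKO (45.2%), so the count of members on CD-HFD was near the background. CD-HFD against CD-LFD called 3 of 7 in WT (21.1% of genes), 1 of 7 in Ripk3KO (8.83%) and 4 of 7 in MlklKO (23.7%). The median log2 change of the 7 members for CD-HFD against control was 0.99 in WT, beside -0.07 over all genes, 0.60 in Ripk3KO, beside -0.05, and 0.32 in MlklKO, beside -0.04. For 2 of 7 members in each genotype, all CD-HFD libraries lay above all control libraries. That separation held for 14.3% of all genes in WT, 20.6% in Ripk3KO and 22.2% in MlklKO. These members were S100a6 and S100a11 in all 3 genotypes.

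S100a6 (ENSMUSG00000001025), which encodes calcyclin, rose on both choline-deficient diets in all 3 genotypes. In WT its lowest, median and highest values were 0.615, 1.44 and 3.18 CPM on control diet, against 2.33, 5.19 and 7.17 for CD-LFD and 15.8, 21.2 and 28.3 for CD-HFD. The 3 diets ran in that order, with only the top of the control range reaching into CD-LFD. In Ripk3KO the control libraries lay at 0.630, 1.25 and 1.47 CPM (lowest, median and highest), the CD-LFD libraries at 6.25, 1.48 and 11.4, and the CD-HFD libraries at 18.8, 15.8, 11.6 and 15.0. Ripk3KO CD-LFD replicate 2 was the low one, at the edge of its controls. In MlklKO the control libraries lay at 0.447, 1.34 and 1.52 CPM (lowest, median and highest), CD-LFD at 4.07, 4.92, 3.37 and 4.91, and CD-HFD at 14.1, 18.3 and 13.1. The 3 MlklKO diets did not overlap. The CD-HFD increase over control was 3.73 (SE 0.338) on the log2 scale in WT, adjusted p = 5.81e-12, 3.70 (SE 0.359) in Ripk3KO, adjusted p = 3.67e-11, and 3.69 (SE 0.372) in MlklKO, adjusted p = 9.72e-11. For CD-LFD it was 1.49 (SE 0.357) in WT, 2.53 (SE 0.396) in Ripk3KO and 1.88 (SE 0.382) in MlklKO, with adjusted p at or below 0.00172. CD-HFD exceeded CD-LFD by 2.24 in WT (adjusted p = 1.11e-07) and by 1.81 in MlklKO (adjusted p = 0.000313). The Ripk3KO difference between these diets, 1.17 (adjusted p = 0.0346), rested on few libraries: without CD-LFD replicate 2 it was 0.74 (adjusted p = 0.296), and without CD-LFD replicate 1 or CD-HFD replicate 1, 2 or 5 it was 1.06 to 1.18 (adjusted p 0.0611 to 0.125). The fit with a replicate block gave 1.09 (adjusted p = 0.0655).

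S100a11 (ENSMUSG00000027907), whose product binds annexin A1, rose on both choline-deficient diets in every genotype. Its WT values ran from 3.59 over a median of 4.40 to 14.7 CPM on control diet, from 18.8 over 41.0 to 79.2 on CD-LFD, and from 64.5 over 78.6 to 131 on CD-HFD. Control libraries lay below all others, and the choline-deficient diets overlapped. In Ripk3KO, control libraries held 3.14 to 7.97 CPM (median 5.88), CD-LFD libraries 47.3, 17.9 and 65.4, and CD-HFD libraries 86.7, 53.0, 62.2 and 49.4. In MlklKO, control libraries held 3.43 to 15.8 CPM (median 10.5), CD-LFD libraries 42.0, 31.1, 29.7 and 50.04, and CD-HFD libraries 56.4, 84.8 and 52.8. Controls were again below every diet library in both knockouts. CD-HFD raised S100a11 by 3.75 (SE 0.395) on the log2 scale in WT, adjusted p = 2.74e-10, by 3.46 (SE 0.405) in Ripk3KO, adjusted p = 3.49e-09, and by 2.71 (SE 0.406) in MlklKO, adjusted p = 6.54e-07. CD-LFD raised it by 2.82 (SE 0.389), 2.95 (SE 0.424) and 1.95 (SE 0.385) in the same order, with adjusted p at or below 0.000155. The increase from CD-LFD to CD-HFD was called in WT (0.93, adjusted p = 0.0392). That call ended without CD-LFD replicate 1, 3 or 4 or CD-HFD replicate 4 or 6 (0.77 to 0.87, adjusted p 0.0735 to 0.118), and with the clock-phase term described beside S100a10 it was 1.15 (adjusted p = 0.160). In MlklKO, where all CD-HFD libraries lay above all CD-LFD libraries, the difference was 0.76 (SE 0.435, adjusted p = 0.210), and with only those groups in the fit 0.74 (adjusted p = 0.0236). In Ripk3KO it was 0.51 (SE 0.442, adjusted p = 0.536).

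S100a6 and S100a11 moved beside markers of several cell types. The summed level of 10 cholangiocyte markers averaged 87.8 CPM on control diet, 261 on CD-LFD and 967 on CD-HFD in WT, with ranges of 64.0 to 122, 158 to 403 and 732 to 1215. In Ripk3KO the ranges were 59.7 to 117, 93.2 to 616 and 678 to 1260 CPM, and in MlklKO 96.9 to 164, 155 to 238 and 793 to 1126. Spp1, which macrophages also express, made up 45.4%, 70.0% and 82.6% of the WT sum, and without it, a choice made after seeing the data, the WT sum averaged 47.9, 78.3 and 168 CPM. All 9 tested cholangiocyte markers rose on CD-HFD in each genotype, where 47.7%, 46.3% and 45.2% of all genes were called in either direction. On CD-LFD 5 of 9 rose in WT, 8 in Ripk3KO and 1 in MlklKO, beside 27.7%, 24.1% and 37.9% of all genes. On CD-HFD in WT, 23.5% of all genes were called higher and 24.1% lower. There 9 of 11 tested stellate cell and fibroblast markers rose, and their sum averaged 291, 567 and 1395 CPM on the 3 diets. Of 15 macrophage markers 12 rose and 3 fell, and their sum averaged 228, 409 and 1715 CPM. The 10 hepatocyte markers averaged 128993 CPM in sum on control diet and 71279 on CD-HFD, with 9 of 10 lower. Within groups, over 44 libraries, the deviations of S100a6 had a correlation of 0.67 with the cholangiocyte sum, 0.49 with the stellate cell and fibroblast sum, -0.49 with the hepatocyte sum and 0.03 with the macrophage sum. Those of S100a11 had 0.58, 0.41, -0.52 and -0.07 in the same order. Without Spp1 the cholangiocyte correlations were 0.70 and 0.66. These correlations share library and depth and are a description. The part of cell composition in the changes of S100a6 and S100a11 was not tested, and in whole tissue fewer cells of a type and less RNA per cell cannot be told apart. The genes most like S100a6 within groups were Bicc1 (r = 0.78), Plekhs1 (0.76) and Mmp23 (0.75), and for S100a11 they were Clcf1 (0.82), Timm10b (0.80) and Mmp23 (0.80), each over 44 libraries.

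**Figure D2:**
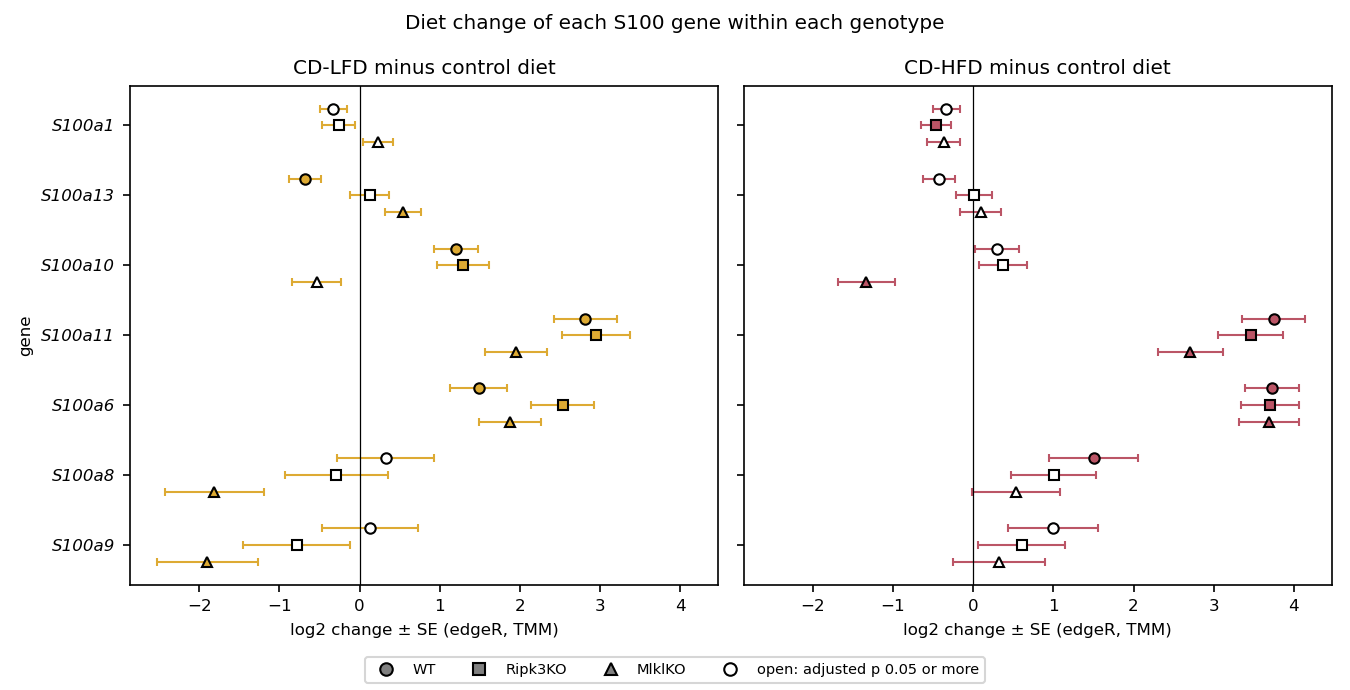
Log2 change of the 7 tested S100 genes for CD-LFD (left) and CD-HFD (right) against control diet, by genotype. The x axis is the edgeR log2 change with its standard error, filled symbols passed an adjusted p of 0.05 and open ones did not. On CD-HFD the 3 genotypes lie together for S100a6, near 3.7, while MlklKO lies on the negative side for S100a10 at -1.33.

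S100a10 (ENSMUSG00000041959), which encodes the annexin A2 ligand p11, followed neither diet order. In WT it ran from 58.9 over a median of 77.9 to 151 CPM on control diet, from 133 over 210 to 260 on CD-LFD, and from 82.1 over 107 to 144 on CD-HFD. In Ripk3KO it ran from 46.0 over 69.8 to 106 CPM on control diet, lay at 222, 98.4 and 218 on CD-LFD, and at 122, 77.1, 109 and 71.8 on CD-HFD. In both genotypes CD-LFD held the highest libraries, and each overlapped its controls through 1 library. In MlklKO the control libraries lay at 180, 201, 291, 122, 308 and 48.2 CPM, CD-LFD at 159, 117, 139 and 115, and CD-HFD at 65.3, 95.6 and 67.4. MlklKO controls thus spread widely, and 5 of 6 of them lay above every MlklKO library on CD-HFD.

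CD-LFD raised S100a10 by 1.2 (SE 0.277, adjusted p = 0.0011) on the log2 scale in WT and by 1.29 (SE 0.322, adjusted p = 0.0031) in Ripk3KO. In MlklKO the CD-LFD difference was -0.54 (SE 0.307, adjusted p = 0.162), and -0.74 (adjusted p = 0.0279) without control replicate 6, the lowest control. In MlklKO on CD-HFD S100a10 fell, with a change of -1.33 (SE 0.354, adjusted p = 0.00199), or -1.24 (adjusted p = 0.0154) without CD-HFD replicate 1. On library size alone that change was -0.80 (adjusted p = 0.0678). CD-HFD against control gave 0.29 (adjusted p = 0.392) in WT and 0.37 (adjusted p = 0.325) in Ripk3KO, and on library size alone 0.78 (adjusted p = 0.0217) and 0.91 (adjusted p = 0.0151). On control diet MlklKO exceeded WT by 1.12 (SE 0.276, adjusted p = 0.00249), and with only those 2 groups in the fit by 1.07 (adjusted p = 0.0613). The diet effect itself differed between MlklKO and WT, by -1.74 (SE 0.415, adjusted p = 0.00696) for CD-LFD and by -1.63 (SE 0.443, adjusted p = 0.0287) for CD-HFD. For CD-LFD the call held without each library in turn (-1.95 to -1.55). For CD-HFD it ended without MlklKO control replicate 3 or 5 or MlklKO CD-HFD replicate 1 or 4 (-1.58 to -1.44, adjusted p 0.0572 to 0.0934), with -1.56 (adjusted p = 0.0732) for MlklKO CD-HFD replicate 1. With only the compared groups in the fit it was -1.67 (adjusted p = 0.0847). The difference between CD-HFD and CD-LFD in WT, -0.91 (adjusted p = 0.0127), became -0.47 (adjusted p = 0.496) with a term for clock phase. The same difference was -0.92 (SE 0.356, adjusted p = 0.101) in Ripk3KO and -0.80 (SE 0.366, adjusted p = 0.110) in MlklKO, where all CD-HFD libraries lay below all CD-LFD libraries. With only those groups in the fit it was -0.93 (adjusted p = 0.0432) and -0.82 (adjusted p = 0.00598). Libraries with a high ratio of the clock gene Arntl to Dbp numbered 4 of 6 WT on control diet, 6 of 6 on CD-LFD, 1 of 6 on CD-HFD and none of the 26 knockout libraries.

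Anxa2 (ENSMUSG00000032231), the partner of S100a10, rose on both choline-deficient diets in all 3 genotypes. Its mean level was 13.7 ± 2.5, 106 ± 26.2 and 180 ± 30.2 CPM on control, CD-LFD and CD-HFD in WT, 10.7 ± 2.18, 106 ± 69.7 and 162 ± 29.7 in Ripk3KO, and 25.2 ± 11.9, 63.3 ± 14.3 and 175 ± 4.13 in MlklKO (SD, n as above). CD-HFD libraries of Anxa2 lay above all controls in each genotype. Its response to CD-LFD was also smaller in MlklKO than in WT, by a log2 difference of -1.63 (SE 0.406, adjusted p = 0.00941). For CD-HFD that difference was -0.93 (adjusted p = 0.216). Within groups the correlation of S100a10 and Anxa2 was 0.75 over 44 libraries, and the genes most like S100a10 were Krt18 (0.88), Trp53 (0.81) and Krt8 (0.79). Krt8 and Krt18 encode the keratin pair of hepatocytes and bile duct cells. S100a10 also correlated with S100a11 (0.74), its neighbour on the chromosome. With the sums of the 9 cell-type lists its correlations lay between -0.30 (hepatocyte) and 0.35 (cholangiocyte). Without Spp1 the cholangiocyte correlation of S100a10 was 0.49.

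**Figure D3:**
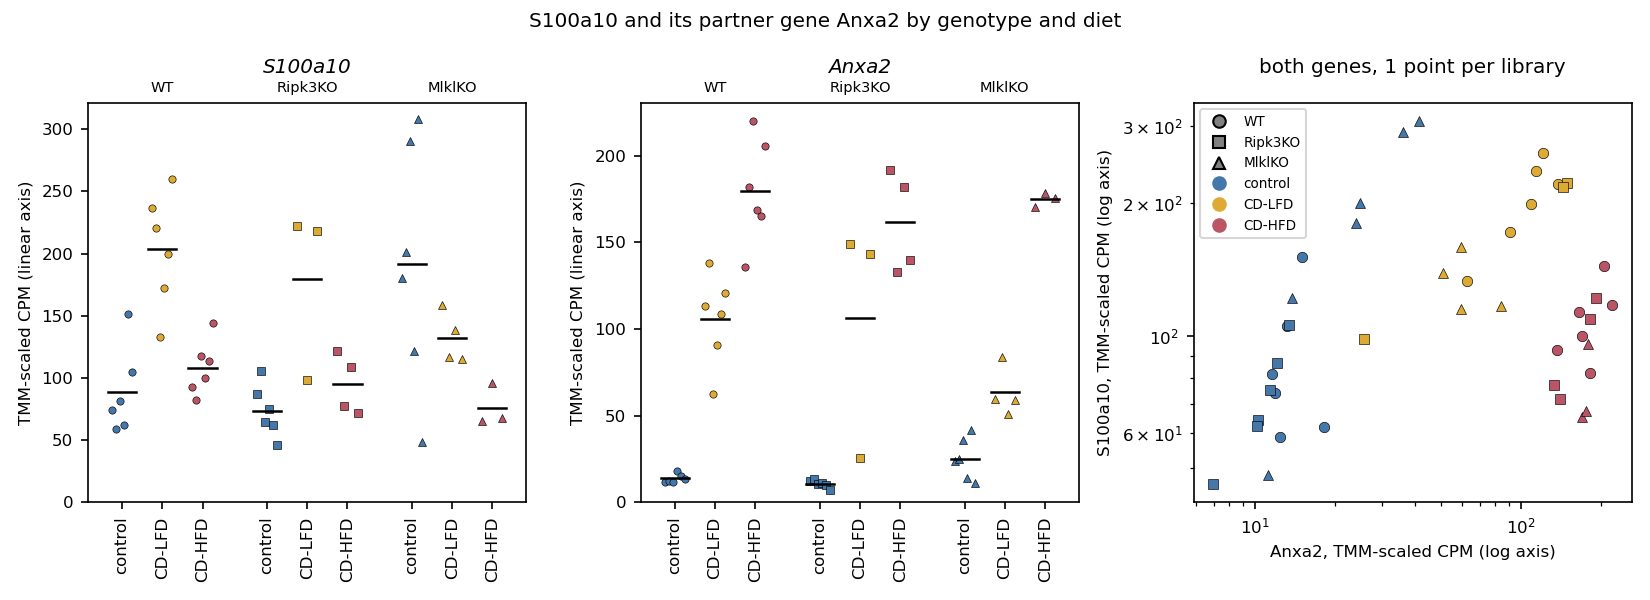
S100a10 (left) and Anxa2 (middle) in TMM-scaled CPM by group, with bars at the group means, and the level of each plotted against the other on log axes (right, 1 point per library). The mean of Anxa2 rises from control over CD-LFD to CD-HFD in all genotypes, whereas the mean of S100a10 falls in that order in MlklKO, from 192 over 132 to 76.1 CPM.

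S100a8 (ENSMUSG00000056054) and S100a9 (ENSMUSG00000056071), the calprotectin genes, were low, with 0 to 48 and 1 to 86 counts per library. S100a8 had fewer counts than S100a9 in 34 of 44 libraries, and their within-group correlation was 0.72. In WT, S100a8 ran from 0 over a median of 0.642 to 2.20 CPM on control diet, from 0.551 over 1.11 to 1.67 on CD-LFD, and from 1.09 over 1.93 to 4.75 on CD-HFD. All 6 CD-HFD libraries lay above 5 of 6 controls, and control replicate 6 at 2.20 CPM lay among them. The CD-HFD change was 1.505 (SE 0.554, adjusted p = 0.0232), and it lost the call without WT control replicate 2 or 4 or CD-HFD replicate 6 (1.16 to 1.30, adjusted p 0.0555 to 0.0941), with the clock-phase term (adjusted p = 0.0624) and with only the groups compared (adjusted p = 0.0502). For S100a9 the WT change on CD-HFD was 0.99 (SE 0.561, adjusted p = 0.145), and 2.26 (adjusted p = 0.00412) without WT control replicate 3, the highest control at 4.77 CPM. In Ripk3KO, S100a8 ran from 0.419 to 2.44 CPM on control diet and lay at 2.16, 4.50, 1.92 and 2.56 on CD-HFD. That CD-HFD difference of S100a8 was 1.0 (SE 0.526, adjusted p = 0.116), and on library size alone 1.53 (adjusted p = 0.0176). On library size alone S100a9 was also called in WT on CD-HFD (adjusted p = 0.0247).

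In MlklKO both calprotectin genes were lower on CD-LFD than on either other diet. S100a8 in MlklKO ran from 0.298 over 2.56 to 3.39 CPM on control diet, lay at 0.254, 0.745, 0.962 and 0.745 on CD-LFD, and at 2.44, 6.00 and 1.33 on CD-HFD. For S100a9 the controls ran from 0.447 over 4.23 to 6.16 CPM, CD-LFD lay at 0.424, 0.894, 1.60 and 1.34, and CD-HFD at 4.0, 7.70 and 2.53. MlklKO control replicate 6 was the only control inside the CD-LFD range, and no CD-HFD library was. CD-LFD against control gave -1.81 (SE 0.617, adjusted p = 0.0192) for S100a8 and -1.90 (SE 0.632, adjusted p = 0.0169) for S100a9. Without CD-LFD replicate 1 these were -1.46 (adjusted p = 0.0915) and -1.57 (adjusted p = 0.0790). CD-HFD exceeded CD-LFD by 2.34 (SE 0.669, adjusted p = 0.0089) for S100a8 and by 2.22 (SE 0.695, adjusted p = 0.0167) for S100a9. Without CD-HFD replicate 2 they were 1.48 (adjusted p = 0.176) and 1.62 (adjusted p = 0.147), and S100a9 without CD-LFD replicate 1 was 1.89 (adjusted p = 0.0689). The difference of the CD-LFD effect from that in WT was -2.14 (adjusted p = 0.112) for S100a8 and -2.02 (adjusted p = 0.138) for S100a9, neither called. Without WT control replicate 3 the S100a9 difference was -3.29 (adjusted p = 0.0143). The S100a8 difference was -2.68 (adjusted p = 0.0474) without WT control replicate 6 and -2.37 (adjusted p = 0.0473) without MlklKO control replicate 6.

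Neutrophil markers moved beside calprotectin to some extent. The sum of 14 markers averaged 7.33 CPM on control diet, 11.7 on CD-LFD and 24.4 on CD-HFD in WT (ranges 3.38 to 13.6, 7.35 to 21.0 and 18.8 to 31.3). In Ripk3KO the ranges were 2.93 to 43.6, 8.01 to 11.04 and 13.2 to 24.3 CPM, and in MlklKO 6.71 to 17.3, 9.98 to 11.2 and 16.5 to 28.1. Of the 14 markers 10 were under the count filter. Of the other 4, on CD-HFD, 2 rose and 0 fell in WT (23.5% of all genes were called higher and 24.1% lower). In Ripk3KO 2 rose and 1 fell (24.6% and 21.7% of genes), and in MlklKO 1 rose and 0 fell (45.2% in either direction). On CD-LFD in MlklKO Csf3r rose by 1.08 (adjusted p = 0.0125) and Prtn3 fell by 2.45 on the log2 scale (adjusted p = 0.016). The sum rested mostly on Csf3r, the G-CSF receptor, which held 74.3% of it in WT on CD-HFD, and in the Ripk3KO controls Prtn3 held 62.2%. Without Csf3r the sum averaged 3.68, 2.08 and 6.25 CPM on control diet, CD-LFD and CD-HFD in WT, a choice made after seeing the data. In Ripk3KO it averaged 14.8, 2.35 and 6.92 CPM, and in MlklKO 8.64, 2.505 and 8.63. All MlklKO libraries on CD-LFD (2.20 to 3.05 CPM) lay below all MlklKO controls (3.73 to 11.6 CPM) in that sum. Ly6g, the defining surface marker of mouse neutrophils, had at most 2 counts in any group's summed libraries and none in WT on control diet, in WT on CD-HFD, or in Ripk3KO on CD-LFD or CD-HFD. The within-group correlation with the marker sum was 0.60 for S100a8 and 0.67 for S100a9, and without Csf3r 0.51 and 0.71. The part of neutrophil number in these changes was not tested. The genes most like S100a8 were Lilr4b (0.74), Slc37a1 (0.73) and Nfkb2 (0.67), and for S100a9 they were Plaur (0.73), Akr1c18 (0.70) and Slc37a1 (0.68).

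S100a4 (ENSMUSG00000001020), whose product is known from fibroblasts and macrophages, had 0 counts in all 18 control libraries. It had 10 counts over 13 CD-LFD libraries, 7 of them with a count, and 43 over 13 CD-HFD libraries, 11 of them with a count. On CD-HFD the single libraries held 3, 0, 2, 9, 7 and 0 counts in WT, 4, 4, 3 and 5 in Ripk3KO, and 2, 3 and 1 in MlklKO. Set against the upper limit that 0 counts allow (3 counts over the pooled controls of a genotype), the pooled CD-HFD level was at least 3.34-fold higher in WT, at least 4.70-fold higher in Ripk3KO and at least 3.64-fold higher in MlklKO. These limits cover counting error in the controls only, with the CD-HFD level entering as measured. With no count filter, edgeR gave S100a4 on CD-HFD against control an adjusted p of 0.0105 in WT, 0.00456 in Ripk3KO and 0.0240 in MlklKO, and on CD-LFD one of 0.379, 0.379 and 0.220. The fitted fold changes depend on the prior count, since the controls are at 0, and are not given.

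S100a1 (ENSMUSG00000044080), best known from heart muscle, stayed within a narrow range. Its WT values ran from 77.9 over 101 to 153 CPM on control diet, from 64.5 over 86.4 to 98.2 on CD-LFD, and from 63.6 over 87.5 to 105 on CD-HFD, and all 3 ranges overlapped. Group means over the 9 groups lay between 60.1 CPM (MlklKO CD-HFD) and 107 CPM (WT control). In Ripk3KO it ran from 62.3 over 99.5 to 137 CPM on control diet and lay at 89.7, 79.2, 61.0 and 65.4 on CD-HFD. In MlklKO it ran from 65.4 over 75.3 to 93.0 CPM on control diet, lay at 91.6, 83.0, 71.4 and 118 on CD-LFD, and at 56.8, 73.6 and 49.98 on CD-HFD. All these ranges overlapped within their genotype. S100a1 was called in 3 comparisons, each with an adjusted p just under 0.05: -0.46 (SE 0.189, adjusted p = 0.0424) for CD-HFD against control in Ripk3KO, -0.60 (SE 0.225, adjusted p = 0.0484) for CD-HFD against CD-LFD in MlklKO, and -0.46 (SE 0.169, adjusted p = 0.0403) for MlklKO against WT on control diet. The Ripk3KO difference turned to 0.078 (adjusted p = 0.765) on library size alone and was -0.37 (adjusted p = 0.115) in DESeq2. The MlklKO diet difference turned to 0.052 (adjusted p = 0.774) with the short-transcript term described after S100a13 and was -0.55 (adjusted p = 0.0704) in DESeq2. RLE factors and no filter ended both calls too, library size alone also ended the MlklKO one (-0.20, adjusted p = 0.531), and only the compared groups ended the Ripk3KO one (adjusted p = 0.108). The Ripk3KO call ended without control replicate 1, 2 or 4 or CD-HFD replicate 2, 3 or 5. The MlklKO diet call ended without CD-LFD replicate 1, 2 or 4 or CD-HFD replicate 1 or 4, and without CD-HFD replicate 1 it was -0.55 (adjusted p = 0.135). The call between genotypes ended without WT control replicate 4, 5 or 6 or MlklKO control replicate 1, 2 or 4. Over all fits that left out 1 library, the changes were -0.57 to -0.36, -0.82 to -0.45 and -0.53 to -0.33, with adjusted p up to 0.140, 0.231 and 0.156. Within groups the correlations of S100a1 with the cell-type sums lay between -0.51 (macrophage) and 0.19 (B cell), and those of S100a13 between -0.40 and 0.19 for the same lists. With the cholangiocyte sum without Spp1 they were 0.27 for S100a1 and 0.20 for S100a13.

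S100a13 (ENSMUSG00000042312), the divergent neighbour of S100a1, differed between genotypes on control diet. In WT controls it was 14.4, 17.3, 13.8, 21.5, 39.3 and 26.4 CPM, and in MlklKO controls 10.1, 7.60, 13.3, 9.92, 13.5 and 10.6. Every MlklKO control lay below every WT control, and WT control replicates 5 and 6 were the highest. The log2 difference was -0.98 (SE 0.207, adjusted p = 0.000482), and -1.09 to -0.76 without each library in turn. On control diet Ripk3KO differed from WT by -0.60 (SE 0.205, adjusted p = 0.0837), and by -0.64 (adjusted p = 0.0475) in DESeq2. Without WT control replicate 1 or 3 or Ripk3KO control replicate 1 it was -0.72 to -0.70 (adjusted p 0.0314 to 0.0419). In WT, CD-LFD gave -0.68 (SE 0.203, adjusted p = 0.0109), which became -0.46 (adjusted p = 0.0616) without WT control replicate 5 and -0.30 (adjusted p = 0.216) without control replicates 5 and 6. In MlklKO, CD-LFD gave 0.55 (SE 0.224, adjusted p = 0.0494), with libraries at 14.2, 13.7, 13.6 and 22.5 CPM that all lay above the controls. That call ended without MlklKO control replicate 1, 2, 4 or 6 or CD-LFD replicate 1 or 4 (adjusted p up to 0.270). The CD-LFD effect in MlklKO exceeded that in WT by 1.23 (SE 0.302, adjusted p = 0.00875), and the call held without each library in turn (1.01 to 1.33).

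Levels of S100a1 and S100a13 moved from library to library with those of other short transcripts. The S100 mRNAs are short, between 486 and 731 bases in the longest annotated form. A shift was therefore computed per library from 223 other protein-coding genes with longest transcripts of 450 to 750 bases. Within groups its correlation was 0.94 with S100a1, 0.89 with S100a13, 0.56 with S100a11, 0.54 with S100a10, 0.33 with S100a6, 0.11 with S100a8 and -0.01 with S100a9, over 44 libraries. The pair S100a1 and S100a13 correlated at 0.84, and the genes most like S100a1 were Cox7b (0.94), Mcee (0.93) and Cox6c (0.93), the most like S100a13 Tmem256, Hint2 and Snhg8 (0.90, 0.89 and 0.89). The median log2 difference of the 223 short genes between MlklKO and WT on control diet was -0.43, beside -0.06 over all genes. For CD-LFD against control in MlklKO it was 0.55, beside 0.06. With the shift as a term in the fit, chosen after seeing the data, S100a13 in MlklKO against WT controls was -0.58 (adjusted p = 0.000348) and its CD-LFD interaction 0.66 (adjusted p = 0.0128). The CD-LFD change of S100a13 within MlklKO was then -0.00078 (adjusted p = 0.998), and the S100a1 difference between MlklKO and WT controls -0.11 (adjusted p = 0.367). The same fit also added calls. S100a10 was then called on CD-LFD in MlklKO against control (-0.96, adjusted p = 0.0102), S100a8 for CD-HFD against CD-LFD in WT (1.21, adjusted p = 0.0480) and S100a13 for Ripk3KO against WT on control diet (-0.41, adjusted p = 0.0237). S100a1 was then lower than on control diet on CD-LFD in WT (-0.35, adjusted p = 0.0006), Ripk3KO (-0.52, adjusted p = 0.000173) and MlklKO (-0.27, adjusted p = 0.0342), and on CD-HFD in WT (-0.28, adjusted p = 0.00234). S100a11 was then called for MlklKO against WT on control diet (1.05, adjusted p = 0.0247), for CD-HFD against CD-LFD in MlklKO (1.75, adjusted p = 0.00189) and for the MlklKO interaction with CD-LFD (-1.48, adjusted p = 0.0397). S100a13 was then called on CD-HFD in WT against control (-0.34, adjusted p = 0.00755) and against CD-LFD (0.32, adjusted p = 0.0205), and for the MlklKO interaction with CD-HFD (0.62, adjusted p = 0.0220). S100a10's MlklKO interactions were -2.13 (adjusted p = 0.000282) for CD-LFD and -1.51 (adjusted p = 0.00962) for CD-HFD in that fit. What moves short transcripts in these libraries was not tested.

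**Figure D4:**
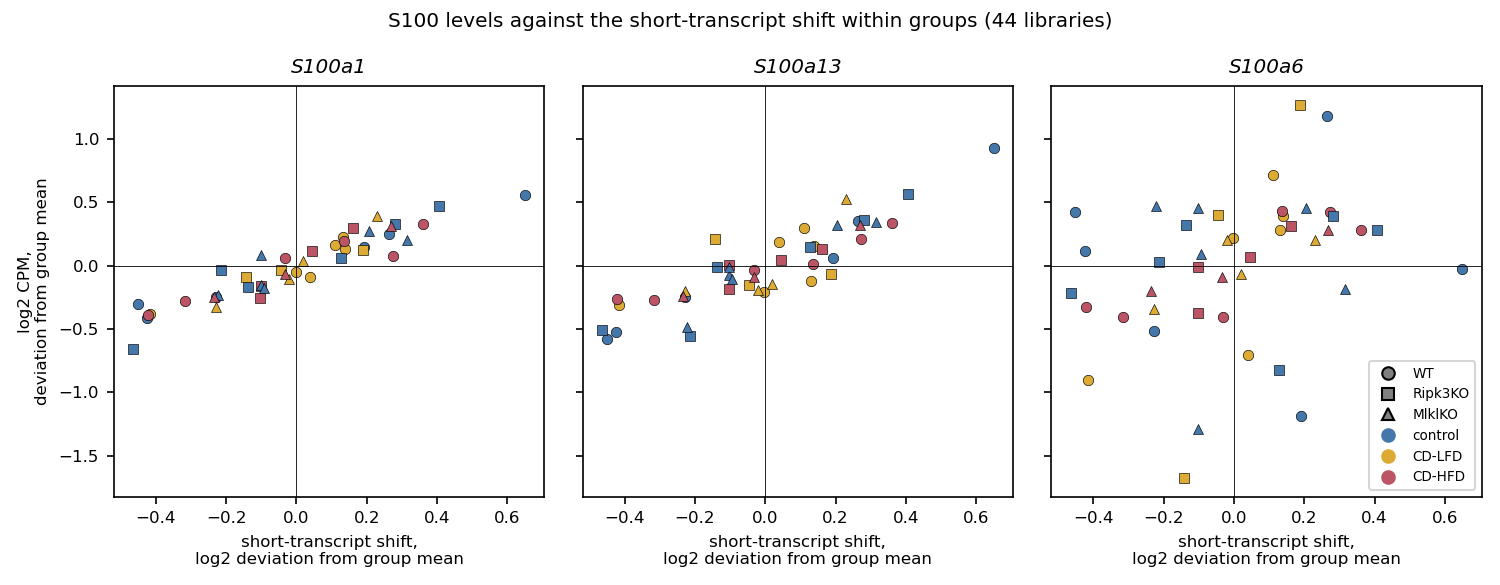
Deviation of log2 CPM from the group mean for S100a1, S100a13 and S100a6 (y axis) against the deviation of the short-transcript shift (x axis), 1 point per library, 44 libraries. S100a1 and S100a13 follow the shift closely (correlations 0.94 and 0.89), and S100a6 loosely (0.33).

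Comparisons between genotypes on the same diet asked whether blocking necroptosis changed S100 levels. On control diet, MlklKO against WT called 4 of 7 members (27.1% of all genes were called): S100a10 and S100a8 were higher, and S100a13 and S100a1 lower. Of tested markers, 3 of 4 for B cells were lower and 1 of 4 for neutrophils higher. Called higher and lower were 2 and 1 of 8 endothelial, 2 and 1 of 9 cholangiocyte, and 1 and 1 of 10 hepatocyte markers. Higher were 1 of 15 macrophage and 1 of 11 stellate cell markers, and no T and NK cell or erythroid marker was called. The calls of S100a8 and S100a1 ended with the clock-phase term (adjusted p = 0.147 and 0.0875) and without a filter (adjusted p = 0.0590 and 0.149), and 4 of 6 WT and no MlklKO controls had a high ratio of Arntl to Dbp. With only these groups in the fit S100a13 alone was called, S100a10 and S100a1 had adjusted p of 0.0613 and 0.0908, and S100a8 did not pass the count filter. On RLE factors and on library size alone S100a8 lost its call (adjusted p = 0.0562 and 0.0691), and S100a1 lost its call without WT control replicates 5 and 6 (-0.23, adjusted p = 0.389). Without those 2 libraries S100a11 gained a call (1.29, adjusted p = 0.0374), beside 0.60 (adjusted p = 0.271) in the main fit. The S100a8 difference was 1.48 (SE 0.568, adjusted p = 0.0476), and it kept the call only without WT control replicate 6 or MlklKO control replicate 6 among 12 fits that left out 1 library (1.23 to 2.03, adjusted p up to 0.101). S100a9 differed by 1.40 (SE 0.563, adjusted p = 0.0588), and it was called without WT control replicate 3 (2.67, adjusted p = 0.00203), without MlklKO control replicate 6 (1.64, adjusted p = 0.0189) and in DESeq2 (1.44, adjusted p = 0.0400). Ripk3KO against WT on control diet called 0 of 7 in edgeR (4.47% of genes), with 1 at an unadjusted p under 0.05 and 1 called by DESeq2, S100a13 in both.

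On the choline-deficient diets no member was called between a knockout and WT by edgeR or DESeq2. The share of all genes called by edgeR on CD-LFD was 1.1% for Ripk3KO and 2.56% for MlklKO, and on CD-HFD it was 0.377% for Ripk3KO and 0% for MlklKO. At an unadjusted p under 0.05 there were 0 members for Ripk3KO and 1 for MlklKO on CD-LFD (S100a10, -0.62, SE 0.308, adjusted p = 0.320), and 0 and 1 on CD-HFD (S100a1, -0.49, SE 0.210, adjusted p = 0.587). S100a6 on CD-HFD was 15.3 ± 2.95 CPM in Ripk3KO (SD, n = 4) and 15.1 ± 2.75 in MlklKO (n = 3), beside 21.8 ± 6.22 in WT (n = 6). Those differences were -0.51 (SE 0.292, adjusted p = 0.647) and -0.52 (SE 0.324, adjusted p = 0.622), and the ranges overlapped. S100a11 on CD-HFD was 62.8 ± 16.8 CPM in Ripk3KO and 64.7 ± 17.5 in MlklKO, beside 87.9 ± 25.5 in WT, with differences of -0.49 (SE 0.371, adjusted p = 0.760) and -0.44 (SE 0.409, adjusted p = 0.728). The diet effect differed between Ripk3KO and WT for 0 of 7 members on either diet in edgeR and DESeq2, with 1 (S100a13) and 0 at an unadjusted p under 0.05. The background was 0.0269% of genes for CD-LFD and 0.478% for CD-HFD. Between MlklKO and WT the CD-LFD effect differed for 2 of 7 members (8.45% of genes), S100a10 and S100a13, and the CD-HFD effect for 1 of 7 (4.12%), S100a10.

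Of 9 other S100 genes looked for, 7 were in the table and 2 of these, S100a16 and S100g, passed the filter. S100g, the vitamin D-regulated calbindin-D9k, was all but absent on control diet, with 1 count over the WT libraries, 0 over Ripk3KO and 1 over MlklKO. Its counts over those genotypes were 120, 58 and 33 for CD-LFD and 34, 25 and 4 for CD-HFD. It was called higher on CD-LFD in all 3 genotypes (adjusted p = 0.00135, 0.000212 and 0.00702) and on CD-HFD in WT and Ripk3KO (adjusted p = 0.0411 and 0.00924). The CD-LFD libraries were uneven, from 0.299 to 7.67 CPM in WT and from 0 to 8.96 in Ripk3KO. With so few control counts, S100g can have passed the filter only through libraries on the choline-deficient diets. Its calls against control therefore describe these libraries and are no separate support. Fits that left out 1 library were read for the members only. S100a16 was called in none of the 19 comparisons and had group means of 20.04 to 26.6 CPM.

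Of 20 partner and receptor genes 16 were tested, and on CD-HFD in WT 8 rose and 1 fell, with a median log2 change of 0.98 beside -0.07 over all genes. On the same diet 8 rose and 2 fell in Ripk3KO, and 7 rose and 1 fell in MlklKO. The shares of all genes called in either direction were 47.7%, 46.3% and 45.2%, so the totals of called partners were near the background. Called higher and lower were 23.5% and 24.1% of all genes in WT, and 24.6% and 21.7% in Ripk3KO. Beside these shares the partners leaned to the higher side. Anxa1, the annexin bound by S100A11, rose by 3.43 in WT, 3.97 in Ripk3KO and 3.44 in MlklKO on CD-HFD (edgeR adjusted p at or below 2.22e-12). Ahnak, the giant scaffold protein bound by the complex of S100A10 and annexin A2, rose by 2.26, 2.27 and 1.70. Tlr4, the receptor for released calprotectin, rose by 2.17, 2.37 and 2.20, from group means of 0.608 to 0.896 CPM on control diet. Ager, which encodes RAGE, was called only for MlklKO, 1.45 (adjusted p = 0.0366) for CD-LFD against control and -1.66 (adjusted p = 0.0191) against WT on control diet. Fgf1, whose product S100A13 helps to release, fell by 1.33 on the log2 scale on CD-HFD and by 1.47 on CD-LFD in WT. In Ripk3KO the log2 difference of Fgf1 was -0.87 (adjusted p = 0.00778) on CD-HFD and -0.70 (adjusted p = 0.0818) on CD-LFD, and in MlklKO they were -0.59 (adjusted p = 0.103) and 0.22 (adjusted p = 0.520). Its CD-LFD effect differed between MlklKO and WT by 1.69 (adjusted p = 0.00225). Cacybp, the partner of S100A6, fell by 0.88 in Ripk3KO and by 0.75 in MlklKO on CD-HFD and was not called in WT. Myh9, the heavy chain bound by S100A4, was higher in MlklKO than in WT controls by 1.37 (adjusted p = 0.000199). Within groups Ager correlated at 0.55 with S100a1 and at 0.62 with S100a13, and Myh9 at -0.81 and -0.80. Those members follow the short-transcript shift, and its part in the Ager and Myh9 calls was not tested.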

How the data were processed

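Total RNA from 44 liver samples was sequenced from strand-marking libraries, per the labels' protocols. The authors deposited raw counts per gene. The submitters' processing notes name FastQC, STAR, HTSeq, edgeR and limma with the builds GRCm39 and mm39, without versions, and whether counting used strand is not given in the sources used here. Groups and replicate numbers came from the labels. The members and lists were chosen with earlier results of these data known.

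Counts were filtered (filterByExpr, minimum count 10), scaled by TMM and fitted with group means over all 44 libraries by edgeR 4.0.16 (glmQLFit, quasi-likelihood F test, R 4.3.3). Benjamini-Hochberg adjustment ran over 14862 genes in each of 19 comparisons. SE was taken as the size of the log2 change over the root of F. Likeness is Pearson's r of log2 CPM (prior count 2) after removing group means, and the 3 most like genes are named per member. All 8 members are named, and other genes come from the lists and from likeness. Alternatives were RLE factors, no TMM, no filter, a robust fit, a replicate block, clock phase, left-out libraries, fewer groups, DESeq2 1.42.0 and a short-transcript term added after seeing the data. The fits were tested on simulated data. Replicates of 1 group differed beyond counting noise (chi-square per degree of freedom 6.59 to 96.7).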

Additional observations from a re-analysis of the deposited data

Results flagged for a closer look

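Among 53 sets of a gene in a group of 4 or more libraries, 3 held a library whose gap to its neighbour was wide for the range of its group, and chance gives about 1 in 20 sets. S100a8 stood at 4.75 CPM in WT CD-HFD replicate 6, beside a next value of 2.44. S100a9 stood at 4.77 CPM in WT control replicate 3, beside 1.47. S100a13 stood at 22.5 CPM in MlklKO CD-LFD replicate 4, beside 14.2.

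For 3 results the diet effect differed between MlklKO and WT by a test of the difference itself in edgeR. For S100a10 the difference was -1.74 on CD-LFD and -1.63 on CD-HFD, since S100a10 was higher in the MlklKO controls and did not rise on either diet. For S100a13 the difference was 1.23 on CD-LFD, with a lower level in the MlklKO controls than in the WT controls. The values with and without single libraries are given beside those results.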

How the results depend on the processing

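Of 36 calls of a member in a comparison, 23 kept the call in every other setting, 22 in every fit that left out 1 library, and 19 in all of them. Against control, S100a6 and S100a11 kept their calls throughout in all 3 genotypes. Counts of members called that moved by over 1.5 times, or from 0, are given first, and the cause was not tested. In WT, CD-HFD against control called 5 on library size alone and 5 with the short-transcript term, in place of 3, and CD-HFD against CD-LFD called 1 with the clock-phase term and 5 with the short-transcript term, in place of 3. In Ripk3KO, CD-HFD against control called 5 on library size alone. Between control diets, Ripk3KO against WT called 1 on library size alone, with the short-transcript term and in DESeq2, in place of 0, and MlklKO against WT called 2 without a filter, 2 with the clock-phase term and 1 with fewer groups, in place of 4. The MlklKO interaction with CD-HFD called 0 with fewer groups and 2 with the short-transcript term, in place of 1. Smaller moves of the count went both ways: DESeq2 called 2 in place of 3 for Ripk3KO CD-HFD against control, 3 in place of 4 for MlklKO CD-HFD against CD-LFD and 5 in place of 4 for MlklKO against WT on control diet, fits with only the compared groups called 6 in place of 4 for MlklKO CD-HFD against CD-LFD, and the short-transcript term called 3 in place of 2 for the MlklKO interaction with CD-LFD.

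Leaving out 1 library gave 2 to 5 calls for WT CD-HFD against control, 0 to 1 for Ripk3KO CD-HFD against CD-LFD, 2 to 5 for MlklKO CD-LFD against control, 2 to 4 for MlklKO CD-HFD against CD-LFD, 0 to 1 for Ripk3KO and 2 to 5 for MlklKO against WT on control diet, and 0 to 1 for the MlklKO interaction with CD-HFD. With the replicate number as a block, 0 members in place of 1 were called for CD-HFD against CD-LFD in Ripk3KO, and no other count of members moved. In 0 of 36 pairs of groups was every correlation between the deviations of same-numbered libraries over 0.1 (-0.349 to 0.545). For WT control with WT CD-LFD they were 0.0369 to 0.545 (median 0.231), and for WT control with WT CD-HFD -0.154 to 0.441 (median 0.252). A single low correlation fails that rule, so it cannot decide whether the numbers pair libraries within WT.

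Among the 36 calls, the direction turned for S100a1 in Ripk3KO on CD-HFD on library size alone (0.078, adjusted p = 0.765), and, with the short-transcript term, for S100a13 in MlklKO on CD-LFD (-0.00078) and S100a1 in MlklKO between CD-HFD and CD-LFD (0.052). Outside those calls, S100a1 in MlklKO on CD-LFD turned from 0.23 to -0.27 with that term and was then called (adjusted p = 0.0342). Without TMM the median log2 change of all genes moved from -0.07 to 0.43 for WT CD-HFD against control, and the split of higher and lower calls from 3496 and 3586 to 6813 and 1020. Depth limits S100a4, S100a8 and S100a9, which had few counts in most libraries.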
